A study of Homo sapiens with 21 samples.

Results

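The natriuretic peptide system was followed here through 6 genes: the peptide hormones NPPA (atrial natriuretic peptide, ANP) and NPPB (B-type natriuretic peptide, BNP), the protease CORIN, and the receptors NPR1, NPR2 and NPR3. All transcripts listed under these gene symbols in the 6 deposited comparison tables were taken, which gave 12 transcripts of 5 genes among 21537 transcripts of 11851 genes in the whole series. NPR2 was listed in no table. The tables list only transcripts that passed the study's own limit (q of at most 0.05), so a gene without a row was not called in that comparison, which does not show that it was absent or that it did not differ.

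RNA was sequenced from the human induced pluripotent stem cell line PGP1 while it was differentiated into cardiomyocytes with the GSK3 inhibitor CHIR99021 followed by the Wnt inhibitor IWP4. Wild-type PGP1 was sampled at 5 stages with 3 libraries each. The undifferentiated iPSC came first, then mesoderm (M) and cardiac mesoderm (CMes), and after these the cardiac progenitor stage (CP) and beating cardiomyocytes (CM). Cardiomyocytes of 2 UBE2B-/- lines on the same PGP1 background, named here line 1 and line 2, were sampled with 3 libraries each; the lines came from colonies of independent CRISPR-Cas9 experiments and were plated at another density than wild type, and UBE2B is an E2 enzyme of the complex that places ubiquitin on histone H2B. In total 21 poly-A selected libraries were made. The CM were selected in lactate medium, and replicates were started from plates at different times. Every group therefore stands for a single parental cell line.

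The tables give the mean and the variance of the log estimated count over the libraries of a comparison, and no value per library or sequencing depth. Levels are therefore reported as geometric group means of the estimated count (n = 3 libraries per group), and a difference is given in log2 with its standard error (SE), both worked out from the mean and variance columns. Such a calculation yields the size of a difference but not its sign. The sign was taken from the stage that 2 adjacent tables share, or from the wild-type CM that the UBE2B-/- tables share with the CP to CM table; of the 15 differences between stages listed for the genes, 8 had a resolved direction and 7 did not. Differences and folds are of the count plus 0.5, so at low counts they are smaller than the ratio of the printed means. Folds given as at least a value use a floor of 3 counts per library instead. No p-value was computed, since the listed transcripts were selected on the same contrast and an exact permutation test of 3 against 3 libraries cannot go below 0.1.

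Natriuretic peptides are made by heart muscle as prohormones and lower blood pressure and blood volume. CORIN is a membrane-bound serine protease of cardiomyocytes that cleaves pro-ANP, and NPR1 is the guanylate cyclase receptor through which ANP and BNP raise cyclic GMP in target cells. NPR2 is the cyclase receptor of the C-type peptide, and NPR3 removes natriuretic peptides from the circulation. NPPA and NPPB are widely used as genes of the embryonic and the stressed heart muscle.

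NPPA and NPPB lie next to each other on chromosome 1 (hg38, GENCODE 44), NPPA at chr1:11845709-11848345 and NPPB at chr1:11857464-11858945, both on the minus strand. CORIN spans chr4:47593999-47838106 on the minus strand, and NPR1 lies at chr1:153678688-153693992 on the plus strand. NPR3 lies at chr5:32689070-32791724 and NPR2 at chr9:35791003-35809732, both on the plus strand. The NPPA transcript lies within the span of CLCN6, a chloride transporter gene on the opposite strand, and exons of 2 of the 10 annotated CLCN6 transcripts overlap its exons, by at most 265 of 855 bases in ENST00000400892.3. Whether reads were counted by strand was not given in the sources used here, so reads from the overlapping stretch cannot be assigned with certainty.

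The promoters of NPPA and CORIN are shown because these are the 2 genes whose transcripts were far higher in CM than in CP and lower again in UBE2B-/- cardiomyocytes (values below the sequences). Each sequence runs 5′ to 3′ from 250 bases before to 50 bases after the RefSeq start (GRCh38.p14), at chr1:11847734-11848033 and chr4:47838018-47838317, both on the minus strand. Capitals mark matches to GATAA, the core letters of GATA factor sites, and to AAGTG, the core letters of NKX2-5 sites, on either strand.
NPPA: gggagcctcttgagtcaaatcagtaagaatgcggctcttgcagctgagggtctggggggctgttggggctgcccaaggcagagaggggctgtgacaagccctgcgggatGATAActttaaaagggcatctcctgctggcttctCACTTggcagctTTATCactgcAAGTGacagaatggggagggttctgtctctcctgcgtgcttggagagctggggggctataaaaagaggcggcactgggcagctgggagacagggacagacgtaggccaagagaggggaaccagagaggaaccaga
CORIN: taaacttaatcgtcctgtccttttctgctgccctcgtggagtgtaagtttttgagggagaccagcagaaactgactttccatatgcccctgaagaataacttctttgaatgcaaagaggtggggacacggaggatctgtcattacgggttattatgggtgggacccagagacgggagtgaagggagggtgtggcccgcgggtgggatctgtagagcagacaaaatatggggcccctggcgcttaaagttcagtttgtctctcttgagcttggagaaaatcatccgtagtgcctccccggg

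The NPPA promoter held both motifs, GATAA at -141 to -137 and, on the opposite strand, at -95 to -91 relative to the start, and AAGTG at -85 to -81 and, on the opposite strand, at -107 to -103. The CORIN promoter held neither, and neither did the promoter of NPR1. AAGTG was also found in the NPR2 promoter and in both NPR3 promoters. Among all 35116 RefSeq promoters, 22.7% held GATAA, 43.1% held AAGTG and 11.6% held both. The T-box letters GGTGTG were found in the CORIN promoter at -64 to -59 and in both NPR3 promoters, and 16.8% of all promoters held them. TATAAA was found in the NPPA promoter at -29 to -24, and 11.5% of all promoters held it. These matches describe letters in the window and not bound sites. A promoter was at hand for 5 of the 6 genes, and the NPPB promoter was not among them.

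Before the genes were compared, the stage labels were checked against cell type markers. Of the 3 mesoderm markers listed from iPSC to M, TBXT was higher in M (0.52 to 529 counts) and 2 were not resolved. Mesoderm markers from M to CMes were mixed, with 1 higher, 1 lower and 1 not resolved. In CP, 3 of the 4 were lower than in CMes, by 4.57 to 5.73 on the log2 scale, and 1 was not resolved. All 3 cardiac progenitor markers listed for this step were higher in CP, by 1.23 to 3.43. Of the 3 listed from CP to CM, 1 was higher, 1 lower and 1 not resolved. From CP to CM all 8 cardiomyocyte markers were listed, 7 with a resolved direction and each of these higher in CM, by 3.24 to 14.11 on the log2 scale with a median of 6.02. Of 4 pluripotency markers, 3 were listed from CMes to CP and all 3 were lower in CP, by 1.81 to 4.54 on the log2 scale (NANOG, 558 to 23.5 estimated counts). From M to CMes the 4 mesenchymal markers listed included 2 that were higher in CMes and 2 that were not resolved. Of the 3 pluripotency markers listed there, 2 were lower in CMes and DNMT3B was higher (2.02). From CMes to CP all 6 cardiomyocyte markers listed were higher in CP, by 2.49 to 8.61. Of the 3 mesenchymal markers listed, 2 were higher (LUM, 31.7 to 5873 counts) and 1 was not resolved. Of the 3 endoderm or epithelial markers, 2 were higher (APOA1, 68.0 to 4970 counts) and 1 was not resolved. VWF, the only endothelial marker listed for this step, was lower in CP (1106 to 46.7 counts). The CP libraries thus held markers of several cell types.

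NPPB was listed at each of the first 3 transitions, with a resolved direction at each. Its single listed transcript, ENST00000376468.4, had a geometric mean of 19.4 estimated counts in iPSC and lay at 0 in all 3 M libraries. In CMes its mean was 194 in the M to CMes table, and from CMes to CP it went from 195 to 1870. The sequence of levels was thus low in iPSC, at 0 in M, and higher at each of the next steps.

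Against a floor of 3 counts per library, NPPB was at least 6.47-fold lower in M than in iPSC and at least 64.7-fold higher in CMes than in M. On the log2 (count + 0.5) scale the drop from iPSC to M was -5.32 (SE 0.79), the gain from M to CMes 8.60 (SE 0.61) and the gain from CMes to CP 3.26 (SE 0.62, 9.55-fold). These sizes were 6.76, 14.2 and 5.24 times their SE. The M libraries at 0 had no spread of their own, and with the variance that the study's fit shares between transcripts of like level the first 2 ratios were 3.595 and 9.07. Among the transcripts listed for M to CMes, 99.3% showed a smaller difference than NPPB.

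NPPB was not listed from CP to CM. Brought to the scale of the UBE2B-/- tables, its CP mean corresponded to 1912 estimated counts, and its mean over the 9 libraries of wild-type and UBE2B-/- CM was 2131. The mean and variance of that fit bound the wild-type CM mean between 874 and 5192 counts.

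NPPA was far higher in CM than in CP. Its transcript ENST00000376480.7 (3 exons, 855 bases) had a geometric mean of 5.41 estimated counts in CP and 23392 in CM. On the log2 (count + 0.5) scale the difference was 11.95 (SE 1.88), or 3959-fold. That difference was 6.37 times its SE, and 99.9% of the 12982 transcripts listed for CP to CM differed by less. Without the added 0.5 the log2 difference was 12.08. Per kilobase of transcript the CM mean of NPPA was 27359 estimated counts in this table, where the highest CORIN transcript had 510 per kilobase.

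The spread behind the NPPA value lay mostly among the CP libraries. The residual SD of NPPA in the CP to CM comparison was 2.30 (log2), against 0.81 in the comparison of wild-type and UBE2B-/- CM, which holds the same wild-type CM libraries. At least 81.2% of the residual sum of squares between CP and CM therefore came from the CP libraries, whose SD was at least 2.93 on the log2 scale. The CP libraries differed among themselves in NPPA by several doublings, while the SD of the wild-type CM libraries was at most 1.41.

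An earlier NPPA difference was listed from M to CMes, where 1 stage lay at 0 in all libraries and the other had a mean of 29.2 estimated counts. Which stage was the higher was not resolved, and the difference was at least 9.75-fold against the floor (5.89 on the log2 scale, SE 0.50, and 11.8 times its SE, or 3.94 times with the shared variance). On the scale of that table the CP mean of NPPA corresponded to 6.07 counts, which would be 2.18 log2 units below CMes if CMes was the higher stage. The step from CMes to CP was not listed for NPPA.

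**Figure D1:**
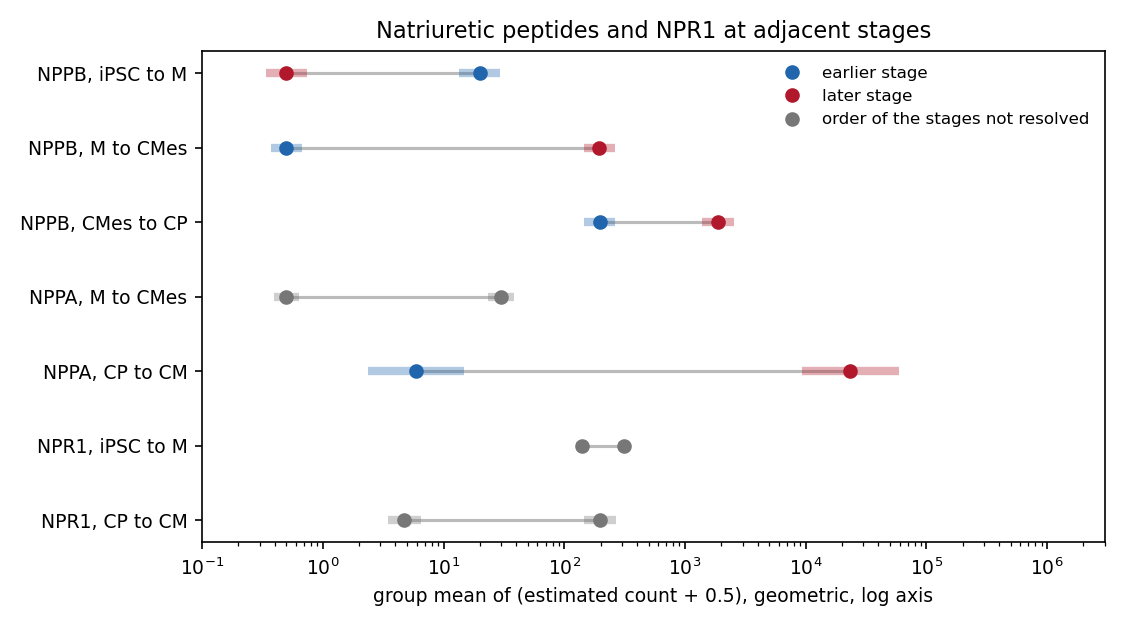
Geometric group means of the estimated count plus 0.5 (log axis) for NPPB, NPPA and NPR1 in each stage comparison that lists them, with 3 libraries a group. Points are group means, thick bars 1 SE of a group mean from the pooled residual variance, blue the earlier and red the later stage, and grey means that the order of the stages was not resolved; NPPB ran from 19.4 counts through 0 to 1870, and NPPA from 5.41 in CP to 23392 in CM.

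CLCN6 transcripts were read beside NPPA because of the shared exons. The main CLCN6 transcript, ENST00000346436.11, was modestly higher in CP than in CMes (791 against 622 counts, 0.35 on the log2 scale, SE 0.10) and in CM than in CP (1030 against 701 counts, 0.56, SE 0.14). The transcript with the largest overlap with NPPA, ENST00000400892.3, had means of 0.80 and 89.3 counts in CP and CM with the order not resolved (6.11 on the log2 scale, SE 1.41). Its higher mean was small beside the 23392 counts of NPPA in the same table. NPPA-AS1 was listed in no table.

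CORIN was listed only from CP to CM among the stage comparisons, with 8 transcripts. A direction was resolved for 4 of them, and all 4 were higher in CM. The full-length coding transcript ENST00000273857.9 (22 exons, 4967 bases) went from 2.37 counts in CP to 2032 in CM, and the coding transcript ENST00000504584.1 (14 exons, 2417 bases) from 2.29 to 1233. The coding transcript ENST00000508498.5, which starts at an internal position 47807 bases from the RefSeq start, went from 0.82 to 799. The retained-intron transcript ENST00000503821.5 was at 0 in all CP libraries and had a mean of 226 in CM.

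On the log2 (count + 0.5) scale the differences of the first 3 of these transcripts were 9.47 (SE 1.41), 8.79 (SE 1.27) and 9.24 (SE 1.44), or 709-fold, 442-fold and 604-fold. Without the added 0.5 their log2 differences were 9.75, 9.07 and 9.92. The retained-intron transcript was at least 75.3-fold higher in CM against the floor (8.82 on the log2 scale, SE 0.44). Differences of this size were rare, since 98.6% to 99.1% of all listed transcripts differed by less. For the 3 coding transcripts, 70.6% to 80.2% or more of the residual sum of squares came from the CP libraries, whose SD was at least 1.85 to 2.24 on the log2 scale.

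The 4 CORIN transcripts without a resolved direction spanned a wide range. ENST00000502252.5, a coding transcript that begins 5 bases from the RefSeq start, lay at 0 in 1 stage and at 308 counts in the other (at least 103-fold, 9.27 on the log2 scale, SE 0.34). The retained-intron transcripts ENST00000505754.1 and ENST00000502726.5 had means of 3.21 and 55.4 counts (3.91, SE 0.63) and of 11.5 and 67.2 counts (2.50, SE 0.85). ENST00000510974.1, which has no defined coding sequence, had means of 0.29 and 14.8 counts (4.27, SE 0.70). With the shared variance the SEs rose to 1.04 for ENST00000503821.5, 1.39 for ENST00000502252.5, 1.09 for ENST00000505754.1 and 1.47 for ENST00000510974.1.

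Transcripts of 1 gene share reads and their estimated counts are not independent, so the 8 CORIN rows are not 8 observations. Per kilobase, the 4 resolved transcripts split as 39.7% ENST00000504584.1, 31.9% ENST00000273857.9, 19.5% ENST00000508498.5 and 8.96% ENST00000503821.5 in CM. The shorter coding transcript and the full-length one thus took the larger part, with no interval available for the shares.

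**Figure D2:**
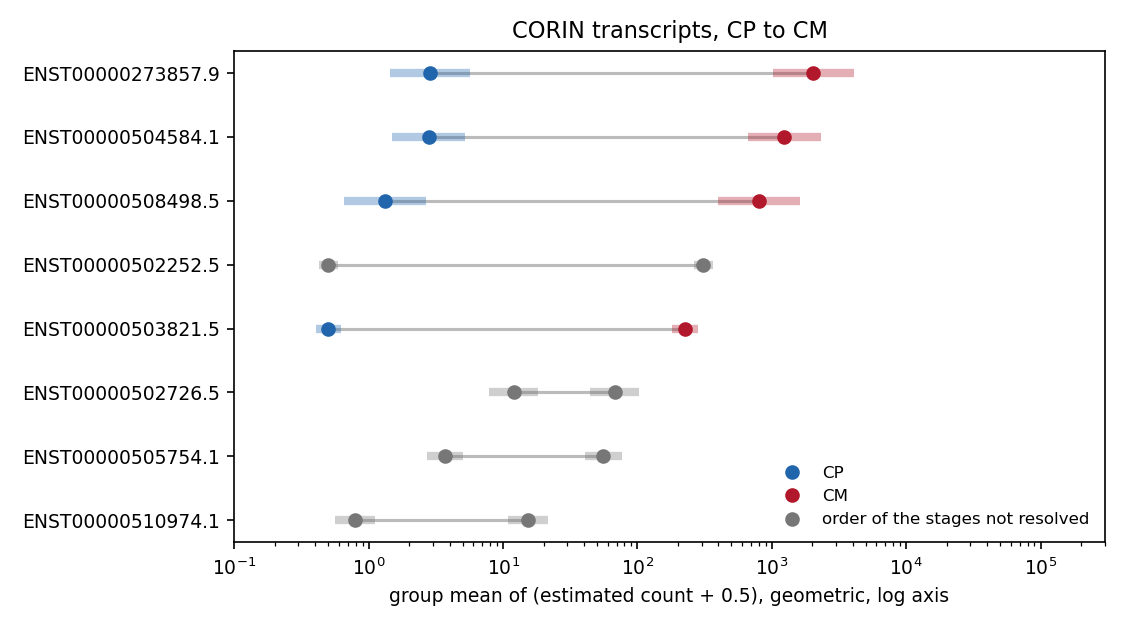
Geometric group means of the estimated count plus 0.5 (log axis) for the 8 CORIN transcripts in CP and CM, with 3 libraries a group. Thick bars are 1 SE of a group mean, blue is CP, red is CM, and grey marks transcripts whose order was not resolved; the 4 resolved transcripts lay at or below 2.37 counts in CP and between 226 and 2032 in CM.

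Of the receptors, only NPR1 appeared in the stage comparisons. ENST00000368680.4 (22 exons, 4185 bases) had means of 139 and 310 counts in iPSC and M, and of 4.24 and 197 in CP and CM. On the log2 (count + 0.5) scale the differences were 1.15 (SE 0.24, 2.22-fold) and 5.38 (SE 0.64, 41.7-fold). These were 4.82 and 8.40 times their SE, and the second was 6.87 times with the shared variance. Without the added 0.5 the log2 difference between CP and CM was 5.54. Neither order was resolved, since no adjacent table listed NPR1. On the scale of the CP to CM table the M mean was 133 or 296 counts, so that a CP mean of 4.24 would be a difference of -4.81 to -5.97 log2 units from M across 2 transitions that were not listed. A CP mean of 197 would lie within 0.58 log2 units of it. Compared per kilobase in CP and CM, the higher NPR1 mean was 47.1 counts, below the 409 of the full-length CORIN transcript in CM.

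Read against all listed genes, with the transcript of highest mean speaking for each gene, the members past 2-fold were 2 of 2 listed from iPSC to M (NPPB and NPR1), where 43.7% of listed genes passed it, and 2 of 2 from M to CMes (NPPB and NPPA), where 52.9% did. From CMes to CP it was 1 of 1 (NPPB) against 44.5%, and from CP to CM 3 of 3 (NPPA, CORIN and NPR1) against 66.7%. With so few members listed and shares this high among all listed genes, the counts describe the members and set nothing apart.

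In UBE2B-/- cardiomyocytes NPPA and CORIN were lower than in wild type. The listed values of the targeted gene offered no check of the genotype: of UBE2B only ENST00000499038.2 was listed, for line 1 alone, with a size between 1.02 and 2.04 log2 units and no resolved direction, and a CRISPR-induced lesion need not lower the transcript count. The paper reports that the knockouts were checked by sequencing cDNA. It also reports lower total H2Bub1 in the lines, in western blots at the iPSC and mesoderm stages. Both UBE2B-/- tables came from a single fit over 9 libraries, with identical mean and variance columns for the 1992 transcripts listed in both. The wild-type CM mean was carried over from the CP to CM table, and the mean of both lines followed from the mean over all 9 libraries.

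NPPA had a geometric mean of 27004 estimated counts in wild-type CM and of 3801 over both UBE2B-/- lines, or 14.1% of wild type. The difference was -2.83 (SE 0.58) on the log2 scale, 4.91 times its SE, and NPPA was listed for both lines. The line means were 2474 and 5838 counts, so both lay below wild type, with differences of -3.45 and -2.21 on the log2 scale. The tables do not say which line had which mean. The gap between the lines was 1.24 log2 units, 1.86 times its SE. It ran from 0.93 to 1.47 over the tolerance of the scale offset between the tables.

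All 4 CORIN transcripts listed for the lines were lower than in wild type. The full-length ENST00000273857.9 had 2346 counts in wild type and 459 over both lines (-2.35, SE 0.45), and the retained-intron ENST00000503821.5 had 261 and 56.6 (-2.19, SE 0.48). ENST00000508498.5 had 923 and 228 (-2.01, SE 0.45). These 3 transcripts were listed for both lines, and ENST00000504584.1, with 1423 and 395 counts (-1.85, SE 0.49), for line 2 only. The differences were 3.78 to 5.25 times their SE.

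With the scale offset used, the CORIN means of the 2 lines lay 0.03 to 0.28 log2 units apart, each under 0.5 times its SE. These gaps depend on the scale offset between the tables. At the lower end of its tolerance they were 0.67 to 0.74, and at the upper end 0. The offset was estimated from the wild-type mean that would hold if both lines were equal, which favours small gaps. Whether the lines differed in CORIN can therefore not be read from them. The differences from wild type of the 4 CORIN transcripts lay within 0.51 log2 units of each other, close to the SE of each. By kilobase their split in the lines was 45.9% ENST00000504584.1, 25.9% ENST00000273857.9, 20.0% ENST00000508498.5 and 8.09% ENST00000503821.5.

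**Figure D3:**
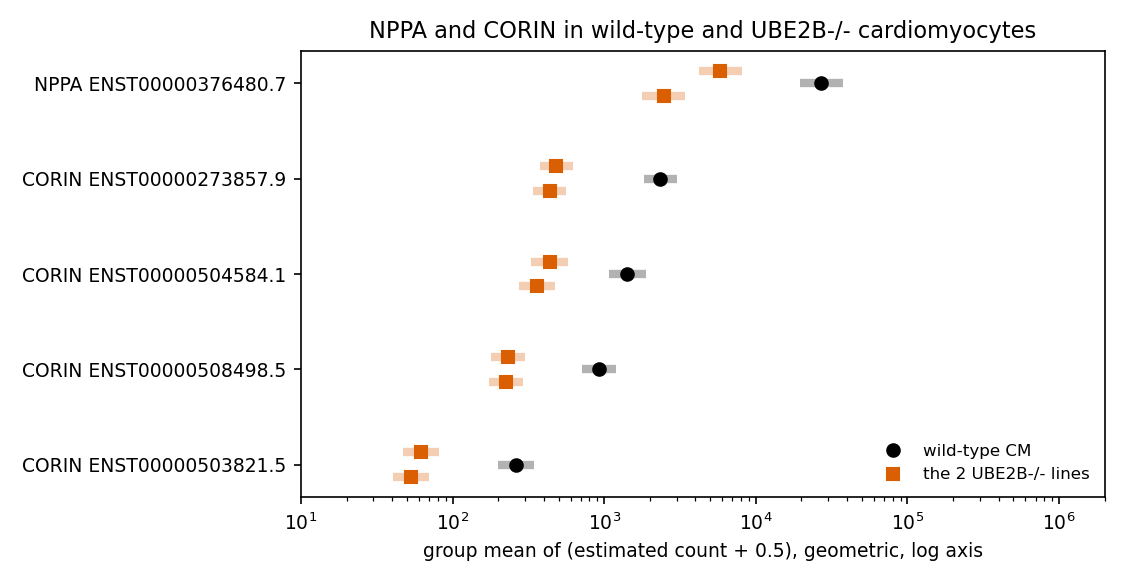
Geometric group means of the estimated count plus 0.5 (log axis) for NPPA and the 4 CORIN transcripts in wild-type CM (black) and in the 2 UBE2B-/- lines (orange, which line is which is not known), with 3 libraries a group. Thick bars are 1 SE of a group mean; every line mean lies below its wild-type mean, 2474 and 5838 against 27004 counts for NPPA.

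NPPB and NPR3 were listed for line 2 only, without a resolved direction. With line 2 taken as the line farther from wild type, its distance in NPPB (mean 2131 counts over the 9 libraries) lay between 1.11 and 2.23 log2 units (2.16-fold to 4.68-fold), with a residual SD of 0.81. For the NPR3 transcript ENST00000415167.2 (8 exons, 1753 bases) it lay between 2.85 and 5.69 log2 units, but the mean was 10.01 counts and the residual SD 2.01 log2 units. NPR1 and NPR2 were not listed for either line.

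Of the 1510 transcripts in this fit with a wild-type mean, 62.2% were lower in the UBE2B-/- lines, with a median difference of -0.77. They were 35.7% of the 4230 transcripts listed for the lines, namely those also listed from CP to CM with a resolved direction. Their lean need not hold for the rest: the paper reported more upregulated than downregulated transcripts among those shared by both lines. Within the 1510, 2.72% were lower by more than NPPA, and 4.17% to 11.3% by more than the CORIN transcripts. Of the genes with a wild-type mean, both members (NPPA and CORIN) passed 2-fold, as did 58% of all such genes, so the count itself sets nothing apart.

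Markers of the cell types in the culture moved in the same comparison. Of the 8 cardiomyocyte markers, 6 were listed for a line with a wild-type mean, and MYH7 and TNNI3 were listed for neither line. All 6 were lower in the lines, by 1.04 (MYL7) to 2.25 (MYL2) on the log2 scale with a median of 1.70. TNNT2 had 25629 counts in wild type and 8306 over the lines. The MYH6 and MYL7 values come from transcripts with 502 and 6155 counts in wild type. Their transcripts read from CP to CM, with 61493 and 79957 counts in CM, were listed for neither line. The 6 thus include only transcripts that passed the study's limit. All 3 mesenchymal markers with a wild-type mean were higher, among them COL3A1 with 7395 counts in wild type and 132029 over the lines, a difference of 4.16 (SE 0.69). COL1A1, also among them, was read from a transcript with 156 counts in wild type. DCN was listed without a wild-type mean, and POSTN was listed for neither line. KDR, an endothelial marker, was higher by 1.57 (SE 0.45). EPCAM, the epithelial marker with a wild-type mean, was lower in the lines, with 463 counts in wild type and 21.5 over the lines (-4.39, SE 1.54). In these bulk libraries fewer cardiomyocytes and less RNA per cardiomyocyte cannot be told apart, and the part that the cell types played in the NPPA and CORIN differences was not tested.

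NPPA was lower by more than each of the 6 listed cardiomyocyte markers, 1.13 log2 units beyond their median. The full-length CORIN transcript also lay below all 6, by 0.65 beyond the median. These 6 were read only because they passed the study's limit in this same comparison. Their median therefore does not measure the change of cardiomyocyte transcripts as a whole, and the distances do not place NPPA or CORIN against it. The other CORIN transcripts lay 0.15 to 0.50 beyond the median. Set against the SE of each transcript's own difference from wild type, the distances were 1.96 times it for NPPA and 1.46 times for the full-length CORIN transcript. For the others they were 0.30 to 1.02 times. That SE leaves out the errors of the markers and is not an SE of the distance.

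**Figure D4:**
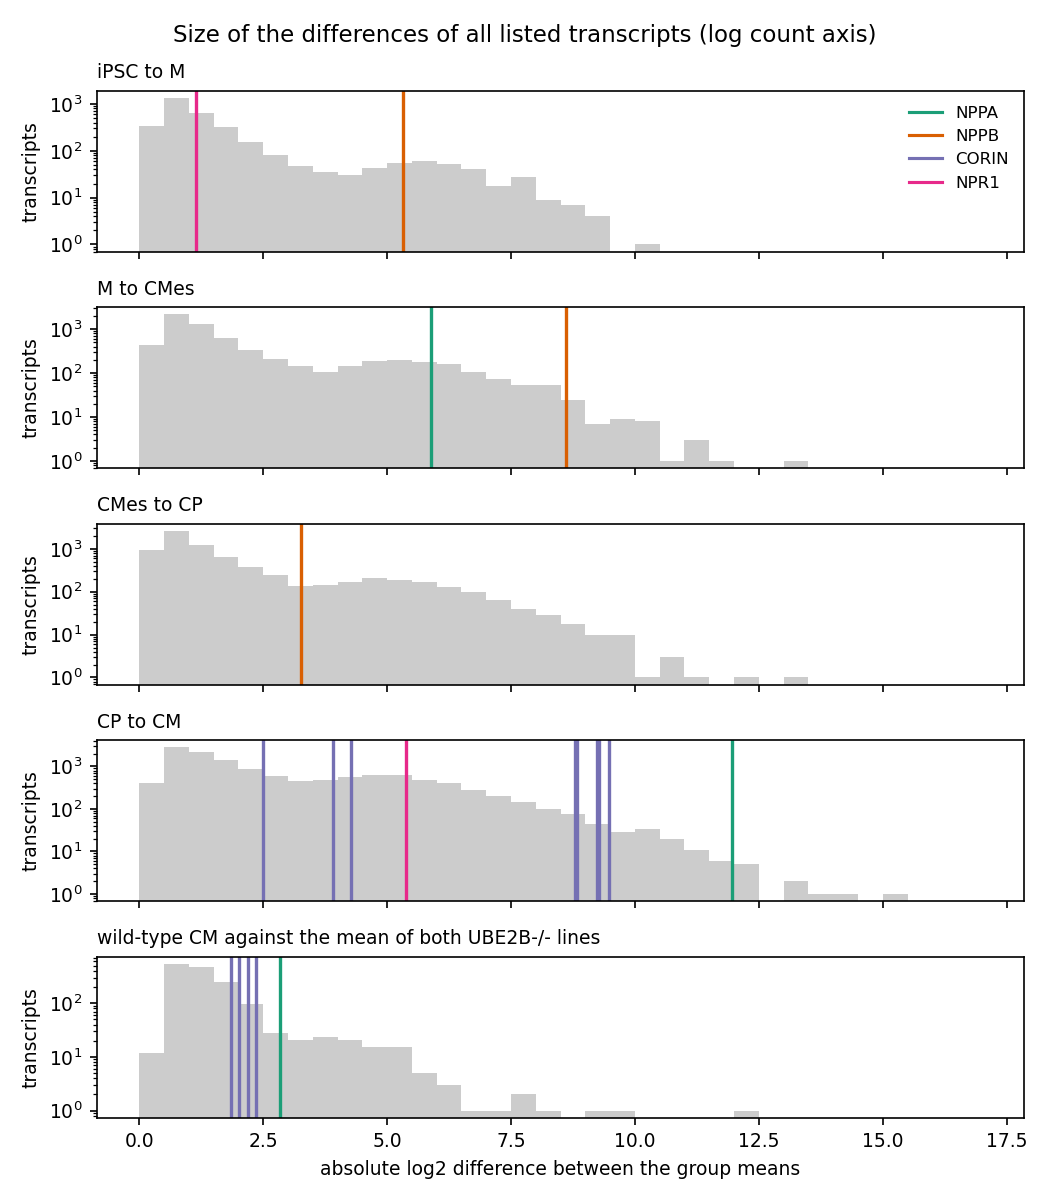
Histograms of the absolute log2 difference between group means for all transcripts listed in each stage comparison, and for wild-type CM against the mean of both UBE2B-/- lines (number of transcripts on a log axis, 0.5 log2 units a bin). Coloured lines are the listed transcripts of NPPA, NPPB, CORIN and NPR1; the NPPA line from CP to CM stands at 11.95 and that of NPPB from M to CMes at 8.60, both in the right tail.

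The rest of the pathway was read from a list of 30 genes around the peptides and cyclic GMP, 21 of which were listed in at least 1 table. NPPC, the C-type peptide, and OSTN, a ligand of NPR3, were among the 9 that were listed nowhere. Past 2-fold were 3 of 7 listed pathway genes from iPSC to M, 8 of 9 from M to CMes, 10 of 13 from CMes to CP and 12 of 12 from CP to CM, beside the shares of all genes given above.

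Among the enzymes that process peptides, FURIN, a proprotein convertase that cleaves pro-BNP, went from 983 to 3107 counts from M to CMes (1.66, SE 0.19) and from 5481 in CP to 2636 in CM (-1.06, SE 0.28). It was higher in the UBE2B-/- lines than in wild-type CM (6832 against 3043 counts, 1.17, SE 0.26). FURIN thus moved opposite to CORIN and NPPA both from CP to CM and in the lines. Of the degrading enzymes, DPP4 went from 54.9 counts in CMes to 1819 in CP (5.04, SE 0.14) and from 1611 to 482 from CP to CM (-1.74, SE 0.30). MME, neprilysin, was represented after CMes by the transcript ENST00000492661.5, which was at 0 in CMes, at 94.5 counts in CP and at 0.94 in CM.

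Of the soluble guanylate cyclase, which makes cyclic GMP in response to nitric oxide, both alpha subunits on the list were higher in CM than in CP. GUCY1A1 went from 297 to 4396 counts from CP to CM (ENST00000296518.11, 3.88, SE 0.28) and GUCY1A2 from 175 to 1057 (2.59, SE 0.31). The beta subunit GUCY1B1 had means of 49.5 and 229.5 counts in CP and CM with the order not resolved (2.20, SE 0.47). GUCY1A1 and GUCY1A2 were lower in the UBE2B-/- lines, GUCY1A1 with 1820 against 5075 counts (-1.48, SE 0.20) and GUCY1A2 with 551 against 1220 (-1.15, SE 0.22). GUCY2C, the receptor of guanylin, fell at earlier steps, from 326 counts in M to 91.0 in CMes and from 91.5 to 11.8 in CP. It was not listed from CP to CM.

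The kinases that bind cyclic GMP were lower in CMes than in M and lower again in CP. PRKG1 (ENST00000373980.10) went from 775 to 338 counts from M to CMes and from 340 to 141 from CMes to CP (-1.20, SE 0.24, and -1.27, SE 0.31). PRKG2 went from 226 to 83.6 and from 84.2 to 31.8 counts over the same steps. From CP to CM another PRKG1 transcript, ENST00000401604.8, lay at 0 in 1 stage and at 177 counts in the other, at least 58.9-fold apart, with the order not resolved, and PRKG2 was not listed. RGS2, a substrate of the kinase, went from 309 counts in CMes to 1333 in CP and from 1181 to 357 from CP to CM.

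Of the phosphodiesterases, PDE3A passed 2-fold at every transition. It went from 232 to 25.1 counts from iPSC to M, from 26.9 to 73.2 to CMes, and from 73.7 to 2113 in CP (4.83, SE 0.27), and then from 1871 in CP to 129 in CM (-3.85, SE 0.40). In the UBE2B-/- lines it had 703 counts against 149 in wild-type CM (2.23, SE 0.61). PDE1C was low in M at 1.40 counts and reached 42.0 in CMes, then went from 42.2 to 9.37 in CP and from 8.30 to 186 in CM. Of the 10 pathway genes listed for a UBE2B-/- line, 4 had a wild-type mean, with 2 higher and 2 lower.

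The genes whose sizes of difference were most like those of a member were sought among transcripts listed in exactly the same stage tables, by Euclidean distance of the absolute log2 differences. For NPR1 (365 genes compared over 2 tables) they were PDPN, RYR2 and CASZ1, at distances of 0.17, 0.31 and 0.40. For NPPA (950 genes, 2 tables) they were MYL3, FGFR3 and PTPN5, and for NPPB (260 genes, 3 tables) SHISA2, KCNA1 and SMARCA2, at distances of 2.93 to 4.08, so that no gene was close to either peptide. SHISA2 and KCNA1 followed NPPB down from iPSC to M and up to CMes, and both were lower in CP, where NPPB was higher.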

How the data were processed

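Poly-A selected RNA of PGP1 cells was sequenced in 21 libraries. The authors estimated counts per transcript with kallisto on hg38 and compared groups with sleuth. The deposited tables give, per listed transcript, the mean of the natural log of the normalised estimated count plus 0.5, and 4 variance scores (the deposited var_obs, tech_var, sigma_sq and final_sigma_sq). A further 4 columns hold the authors' comparison (effect, its error, p and q) and were not used, beyond a check that 0 rows exceeded q of 0.05; 0 columns hold values per sample, so depth is unknown.

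The residual variance was sigma_sq plus tech_var, on 4 degrees of freedom for 2 stages and 6 for wild type and both lines. The variance over libraries minus this residual gave the size of a group difference and its SE. These columns come from the same fit as the effect column, so the sizes are not independent of it. Directions used offsets between tables of 0.067, 0.0063 and -0.12 (natural log), matched within 0.020 to 0.027, and 0.14 to the UBE2B-/- tables (tolerance 0.040). They were resolved for 34.3% to 62.8% of listed transcripts. In 4000 simulated transcripts, 100% of resolved directions over the stage transitions were right. The simulated counts held no zeros, their spread was capped below that of NPPA from CP to CM, and their offsets between tables were exact constants. That share therefore does not cover NPPA or the NPPB and CORIN transcripts with a stage at 0. The SE for the lines leaves out the offset's error. Levels at 0 were bounded with a floor of 3 counts per library, which covers counting error only.

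The members and the pathway and marker lists were chosen with earlier results of these data known. The transcript with the highest mean spoke for a gene, and pathway genes were named if past 2-fold in at least 2 tables or in the UBE2B-/- fit. Nothing states that replicates were separate donors; all come from a single line. Alternatives tried were the shared variance, the pseudocount taken off, other offsets and tolerances, a 1.5-fold limit, any listed transcript, and a mean of at least 5 counts. Analyses used Python 3.11.15, pandas 2.3.3 and numpy 2.4.6; positions are GENCODE 44 and promoters RefSeq GRCh38.p14.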

Additional observations from a re-analysis of the deposited data

How the results depend on the processing

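No paired analysis was possible because the tables hold no value per library, and for the same reason no library could be left out. The 8 resolved directions of the members were resolved, and none turned, with an offset of 0, with the tolerance divided by 2 or doubled, and with an offset of 0 to the UBE2B-/- fit. With that last offset the differences of NPPA and the 4 CORIN transcripts from wild type were -2.52 and -2.04 to -1.54, all within 1 residual SD of the values reported. The offset alone sets this shift, which was nearly the same for each transcript, so it does not test the differences against their spread. With the same offset, 3 of 4 pathway genes passed 2-fold. Leaving out transcripts with a mean under 5 counts reduced the members past 2-fold from 2 to 1 both from iPSC to M (without NPPB) and from M to CMes (without NPPA), since fewer transcripts were then read. A 1.5-fold limit raised the pathway genes counted from iPSC to M from 3 to 6. With the pseudocount taken off, CORIN ENST00000510974.1 differed by 5.66 in place of 4.27 on the log2 scale. The low counts of this transcript, of NPPB in iPSC, of the CORIN transcripts in CP and of NPR3 limit what can be said of them. Any difference under the study's own limit is not seen in these tables.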
